A study of Mus musculus with 12 samples.

Results

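The osteoblast differentiation and mineral matrix genes are a named set of 10 genes, chosen by gene symbol, that mark the steps from a committed bone precursor to an osteocyte. The set holds Runx2, Sp7, Alpl, Ibsp, Spp1, Bglap, Bglap2, Dmp1, Phex and Sost. All 10 were found by name among the 25655 genes of each tissue's table. They were followed in cells sorted as PDGFRα+ mesenchymal cells from bone and from skeletal muscle. The cells came from mice made to lose estrogen receptor alpha (Esr1) in such cells and from their controls.

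Bone-forming osteoblasts arise from mesenchymal precursors. RUNX2 commits a precursor to the bone lineage, and SP7 (osterix) acts after it. The maturing cell then makes tissue-nonspecific alkaline phosphatase (Alpl), which frees phosphate from pyrophosphate, and secretes bone sialoprotein (Ibsp), osteopontin (Spp1) and osteocalcin (Bglap, Bglap2) into the matrix. Osteoblasts that become buried in mineral turn into osteocytes, which make DMP1 and PHEX, both needed to keep phosphate in the body, and sclerostin (Sost), a secreted inhibitor of Wnt signalling and so of bone formation. Estrogen loss is known to speed bone turnover.

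There were 12 samples in 4 groups of 3, from female mice per the series title. The bone knockout and muscle knockout groups carried PDGFRα-CreER, a Cre recombinase that tamoxifen switches on in cells with an active Pdgfra promoter, together with Esr1flox/flox. Among the bone controls, replicate 1 was Esr1flox/flox without Cre, and replicates 2 and 3 carried PDGFRα-CreER alone. Among the muscle controls, replicates 1 and 2 carried PDGFRα-CreER alone and replicate 3 was PDGFRα-CreER;Esr1flox/+. Bone cells were sorted as negative for CD45 and CD31 and positive for PDGFRα, and the muscle gate also required the absence of Vcam1. The labels give neither the ages nor the tamoxifen schedule, and do not say whether replicates are separate animals, so the spread behind the p-values may be partly technical. Libraries were made with a QuantSeq 3' kit, which reads the ends of polyadenylated transcripts.

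Each value of a gene below is the authors' own knockout over control comparison within a tissue. For each gene it holds a fold change, a p, in some genes a false discovery rate (FDR), and the higher of its 2 group means, whose unit the header does not name. Values per library could not be matched to samples by any label, so the spread of replicates, the mean of the lower group and the depth of each sample are not given here. The threshold for a call was an FDR below 0.05 in the authors' comparison. A p was also turned into a 95% interval of the log2 fold change, on the assumption that it is a two-sided normal p. That interval restates the authors' p on the fold scale and is not a separate measure of replicate error.

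Sequence bears on how far these genes can be told apart at the ends that the kit reads. Bglap and Bglap2 are near-identical neighbours, so their coding sequences, from GENCODE vM21 on GRCm38, are shown with capitals at the bases that differ.
Bglap: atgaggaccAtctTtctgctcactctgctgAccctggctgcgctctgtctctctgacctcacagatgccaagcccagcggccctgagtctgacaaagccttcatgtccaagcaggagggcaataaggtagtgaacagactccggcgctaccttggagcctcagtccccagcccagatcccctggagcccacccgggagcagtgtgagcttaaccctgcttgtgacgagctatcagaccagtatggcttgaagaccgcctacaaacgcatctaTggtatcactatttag
Bglap2: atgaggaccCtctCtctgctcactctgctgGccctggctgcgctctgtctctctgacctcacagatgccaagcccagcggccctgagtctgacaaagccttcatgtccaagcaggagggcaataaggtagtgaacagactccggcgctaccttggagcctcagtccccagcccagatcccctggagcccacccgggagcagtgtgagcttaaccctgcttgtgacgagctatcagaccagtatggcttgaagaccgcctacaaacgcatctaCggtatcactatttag
Of 288 coding bases 284 were identical, and the differences from Bglap to Bglap2, counted from 1 at the start codon, were A10C, T14C, A31G and T273C. The last 200 bases of the transcripts, nearest to where the reads fall, were 99.5% identical, with an unbroken shared run of 149 bases. Of the 251 words of 50 bases in the last 300 bases of Bglap, 201 also occurred anywhere in a transcript of Bglap2 or Bglap3. For Bglap2, 211 of 251 such words were shared in the same way with Bglap or Bglap3. The values of Bglap and Bglap2 are therefore uncertain as values of single genes, since the way reads were counted is not given. Of the other members, only Spp1 shared words, 53 of 798, with the predicted gene Gm42793, and no annotated gene overlapped the end of any member.

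The promoters of Bglap, Runx2 and Spp1 show the RUNX core, the letters ACCACA on either strand, in capitals, because RUNX2 is the transcription factor that opens this programme. The windows are the 250 bases before a RefSeq gene start on GRCm38.p6, and all are written on the strand of the gene.
Bglap, chr3:88384467-88384716, minus strand: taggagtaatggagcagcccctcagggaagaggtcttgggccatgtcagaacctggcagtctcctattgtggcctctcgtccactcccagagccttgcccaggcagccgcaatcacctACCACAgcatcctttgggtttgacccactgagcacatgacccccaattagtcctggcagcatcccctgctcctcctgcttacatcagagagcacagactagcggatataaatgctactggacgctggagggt
Runx2, chr17:44814628-44814877, minus strand: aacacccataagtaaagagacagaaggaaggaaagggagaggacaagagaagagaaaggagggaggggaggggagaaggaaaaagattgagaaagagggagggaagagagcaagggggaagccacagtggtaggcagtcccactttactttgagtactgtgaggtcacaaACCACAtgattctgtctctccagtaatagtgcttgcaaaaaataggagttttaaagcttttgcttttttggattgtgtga
Spp1, chr5:104434861-104435110, plus strand: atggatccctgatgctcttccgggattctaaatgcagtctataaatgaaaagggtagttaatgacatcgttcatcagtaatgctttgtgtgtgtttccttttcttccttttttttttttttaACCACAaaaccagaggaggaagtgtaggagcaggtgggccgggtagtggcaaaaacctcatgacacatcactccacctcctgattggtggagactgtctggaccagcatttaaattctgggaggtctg
The core began at position -132 in Bglap, -80 in Runx2 and -128 in Spp1, counted back from the start. A second Dmp1 window held it at -164, and no window of Alpl, Ibsp, Phex or Sost did. Across all 32851 windows of this length, 14.0% held the core. The downstream of 2 Alpl windows is shown for GGTCA, the half-site of the element that estrogen receptors bind, in capitals on either strand.
Alpl, chr4:137766476-137766725, minus strand: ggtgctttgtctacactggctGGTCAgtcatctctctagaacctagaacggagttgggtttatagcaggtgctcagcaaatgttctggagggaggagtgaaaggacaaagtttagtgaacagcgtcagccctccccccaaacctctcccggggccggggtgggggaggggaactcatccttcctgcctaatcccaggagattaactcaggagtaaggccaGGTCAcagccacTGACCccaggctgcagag
The half-site began at -229, -30 and -18 there, and at -245 in a further Alpl window upstream. It was also in Bglap at -112 and -96, in Runx2 at -88 and in Sost at -216. Of all windows, 35.2% held it, and the full element, a pair of facing half-sites 3 bases apart, was in 0.0639% of windows and in no member's. In all, 8 of the 10 members matched 11 windows. Such matches are letters in a window and say nothing of binding.

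In bone cells none of the 10 genes was called. Of the members, 9 had a p and 6 an FDR, against a share of 0.0352% of the 8534 bone genes with an FDR that were called. Of the 4 members with the highest means, the largest fold change was that of Alpl. It was -15.4 in the authors' deposited table, where a negative value is lower in knockout cells, and its FDR of 0.0822 missed the threshold. The most abundant member, Ibsp, stood at 0.34 on the log2 scale in the authors' deposited table, with an interval that included 0. Runx2 and Bglap2 had larger fold changes, both positive, at lower means, and their FDR values also missed the threshold.

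**Figure D1:**
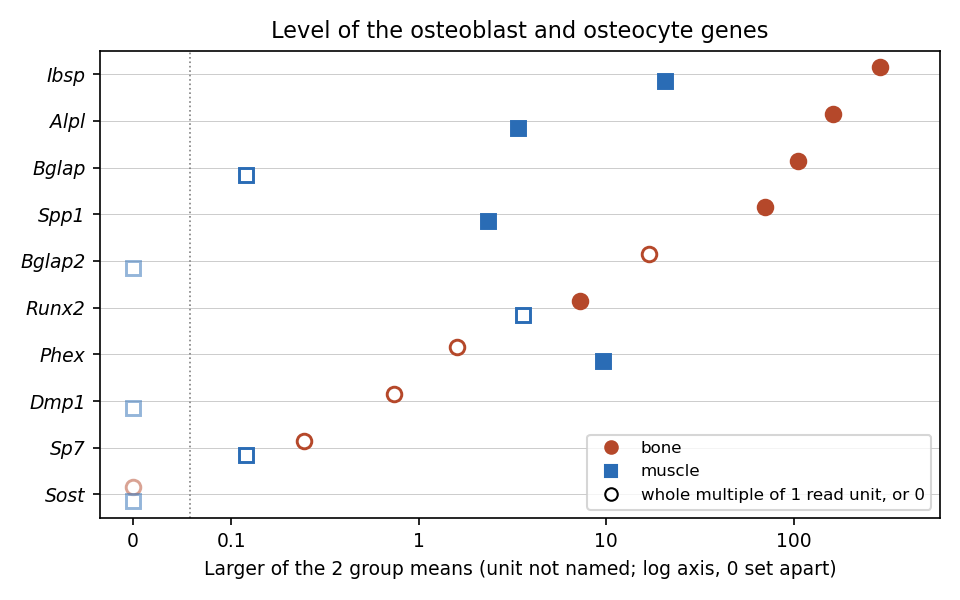
The higher of the 2 group means, knockout or control (horizontal, log axis with 0 set apart, unit not named) of each member (vertical) in bone (circles) and muscle (squares). Open symbols are means that are a whole multiple of 1 read step, or 0. Ibsp is highest in both tissues, at 289.4 in bone and 20.7 in muscle, and Sost is at 0 in both.

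Levels in bone spanned a wide range. Ibsp (ENSMUSG00000029306) had the highest larger group mean in the authors' deposited table, 289.4, above 97.6% of the bone genes that were not at 0. Next came Alpl at 161.8, Bglap at 104.7 and Spp1 at 69.8 in the authors' deposited table. After these stood Bglap2 at 16.9, Runx2 at 7.27, Phex at 1.59, Dmp1 at 0.736 and Sp7 at 0.245 in the authors' deposited table, and Sost was listed at 0. So the enzyme and the secreted matrix proteins led the order, and the transcription factors and osteocyte genes made its lower end. No error is known for these means, so whether neighbours in the order differ could not be tested. Sp7 and Bglap had the same mean in muscle, 0.120 in the authors' deposited table, although their main annotated transcripts are 3097 and 440 bases long, so the column is not divided by transcript length.

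Low means in this column came in discrete steps. The 6 lowest distinct means of each table, as many as a tissue has libraries, were taken as the steps. Many higher means were whole multiples of exactly 1 of them, to within 1e-05 of a step. Such a step is the size that 1 read in 1 library would add to a group mean, and a whole multiple of a single step is what reads in 1 library alone would give. This was read from the means and not checked against values per library. Of the bone genes with a p, 45.9% had such a mean, and of the muscle genes 25.5%. Among the bone members, Bglap2 (167 steps of 0.101), Phex (13 steps of 0.123), Dmp1 (6 steps of 0.123) and Sp7 (2 steps of 0.123) did so in the authors' deposited table. For those 4, the fold change rests on a mean that 1 library could have given alone.

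Among the transcription factors, Runx2 (ENSMUSG00000039153, chromosome 17, 44495987 to 44814797, minus strand, GRCm38) had a log2 value of 8.04 for bone in the authors' deposited table (p = 0.0130, FDR = 0.0793). The implied interval ran from 1.70 to 14.38 on the log2 scale, so the size is poorly known. Its mean of 7.27 in the authors' deposited table was not a whole multiple of 1 step. Among the 470 bone genes with a mean within 10% of it, 86.0% had a positive fold change and 31.7% had a log2 fold change above that of Runx2. At means above 5 to 10, 62.5% of bone genes were higher in the knockout with p under 0.05, so Runx2 lay where such values are common. Sp7 (ENSMUSG00000060284, chromosome 15, 102356606 to 102367182, minus strand), the zinc finger factor that acts after RUNX2, had 3.29 in the authors' deposited table (p = 0.243, no FDR). A total of 39 bone genes, Sp7 included, had exactly its mean and fold change in the authors' deposited table, so its value carries no more than a mean of 2 steps.

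The phosphatase gene Alpl (ENSMUSG00000028766, chromosome 4, 137741733 to 137796384, minus strand) was the member with the largest negative fold change. For bone the authors' deposited table gave a log2 fold change of -3.95 (p = 0.0160, FDR = 0.0822) at a mean of 161.8. The implied interval ran from -7.16 to -0.74. Its p was under 0.05 and its FDR was not. At means above 100, 2.71% of the 738 bone genes were lower in the knockout with p under 0.05, and 2.85% were higher. Of the 87 bone genes with a mean within 10% of that of Alpl, 97.7% had a higher log2 fold change and 1.15%, a single gene, had a lower one. The members next to it in level, Bglap and Ibsp, had -1.21 and 0.34 in the authors' deposited table.

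**Figure D2:**
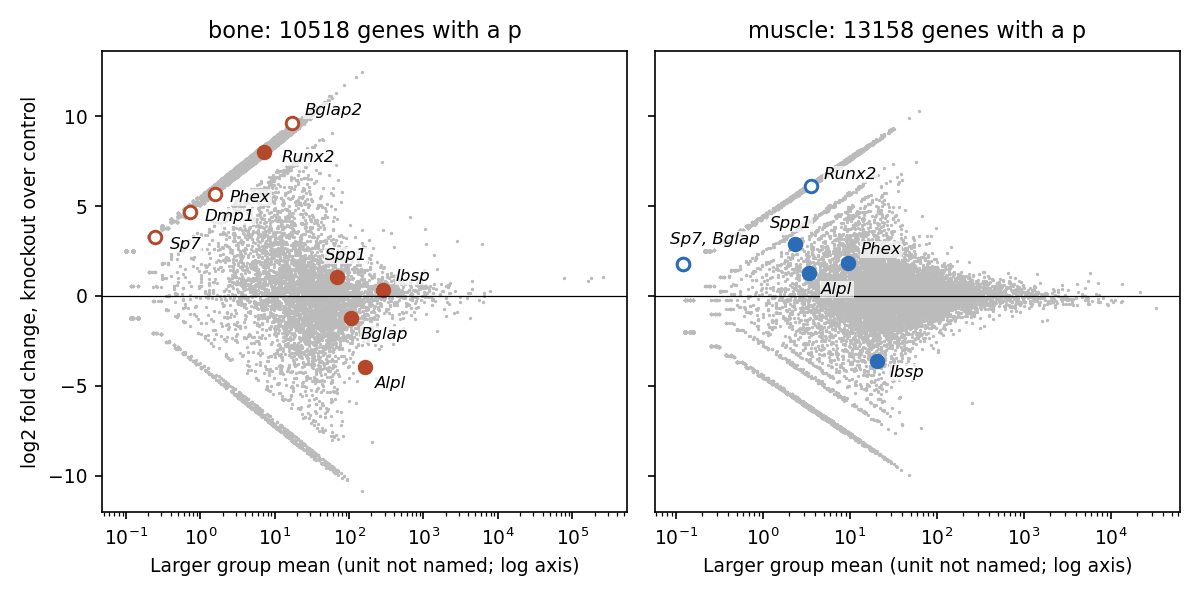
The log2 fold change of knockout over control (vertical) against the larger group mean (horizontal, log axis, unit not named) for the 10518 bone genes and 13158 muscle genes with a p (grey), with the members in colour and those at whole multiples of 1 read step open. In bone Runx2, Bglap2, Phex, Dmp1 and Sp7 lie in or at the end of the upper band, and Alpl, at -3.95, lies below nearly all genes of its level.

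The secreted matrix proteins of the small integrin-binding ligand family differed little or with wide error. Ibsp (chromosome 5, 104299171 to 104311469, plus strand) encodes an acidic protein that binds hydroxyapatite. The log2 value of 0.34 for bone had p = 0.723 and FDR = 0.879 in the authors' deposited table, and the implied interval from -1.56 to 2.25 is the narrowest of the members. Spp1 (ENSMUSG00000029304, chromosome 5, 104435118 to 104441050, plus strand), osteopontin, which holds back crystal growth and binds osteoclasts, had 1.07 in the authors' deposited table (p = 0.526), with an implied interval from -2.23 to 4.37. These intervals leave room for a difference in either direction. Dmp1, Ibsp, Mepe and Spp1 lie in 1 cluster of 238438 bases on chromosome 5, with 85068 bases between Dmp1 and Ibsp, 13859 between Ibsp and Mepe, and 96506 between Mepe and Spp1. Mepe, an osteocyte gene of the same family, was listed at 0 in both tissues.

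The osteocalcin genes gave opposite signs in bone. Bglap (ENSMUSG00000074483, chromosome 3, 88383501 to 88384464, minus strand) had a log2 fold change of -1.21 at a mean of 104.7 in the authors' deposited table (p = 0.497, FDR = 0.719). Bglap2 (ENSMUSG00000074486, chromosome 3, 88377736 to 88378699, minus strand) had 9.63 at a mean of 16.9 in the authors' deposited table (p = 0.00489, FDR = 0.0784). Bglap3, the third copy, had 0.10 at a mean of 0.567 in the authors' deposited table (p = 0.961). The 3 genes lie within 15849 bases. The higher value is thus in the copy whose mean is a whole multiple of a single step and whose end is nearly the same as that of its neighbour. Among the 453 bone genes with a mean within 10% of that of Bglap2, 0.221% had a higher log2 fold change, and at means above 10 to 20, 39.5% of bone genes were higher in the knockout with p under 0.05. The highest value among those 453 was 9.65. All 991 bone genes at whole multiples of the step of Bglap2 alone were positive, so its rank is no separate evidence for this gene. The FDR of Bglap2, 0.0784, was that of 1253 bone genes in the authors' deposited table.

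Osteocyte members were at the edge of detection in bone. Phex (ENSMUSG00000057457, chromosome X, 157162075 to 157415312, minus strand), an endopeptidase-like protein whose loss causes phosphate wasting, stood at 5.71 on the log2 scale of the authors' deposited table (p = 0.0736). Dmp1 (ENSMUSG00000029307, chromosome 5, 104202613 to 104214102, plus strand), a phosphoprotein of the osteocyte matrix, had 4.66 in the authors' deposited table (p = 0.126). Neither had an FDR. Genes with the same mean and fold change numbered 11 for Phex and 15 for Dmp1, each count including the member itself. Sost (ENSMUSG00000001494, chromosome 11, 101962458 to 101967015, minus strand) was listed at 0 in both tissues, and this does not show that sclerostin is absent at greater depth.

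**Figure D3:**
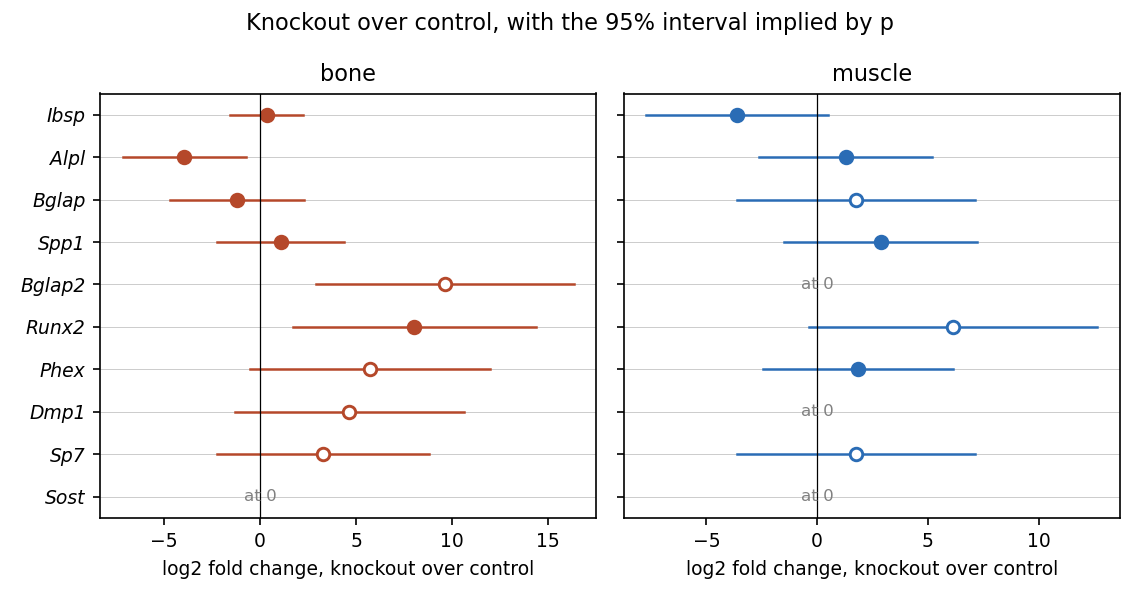
The log2 fold change of knockout over control (horizontal) of each member (vertical) in bone and in muscle, with bars for the 95% interval implied by the authors' p, and open symbols for means at a whole multiple of 1 read step. In bone the intervals of Alpl, Bglap2 and Runx2 exclude 0, and in muscle no interval does.

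As a set in bone, 7 of the 9 members with a p had a positive fold change and 2 a negative one, Alpl and Bglap. Among the positive ones, Phex, Dmp1 and Sp7 had means at whole multiples of the same step, 0.123, and Bglap2 of the step 0.101. Of the bone genes at whole multiples of either step alone, 100% had a positive fold change. The signs of these members are thus those of every gene at their steps and are not separate observations. The median of their log2 fold changes was 3.29, beside 2.51 over all 10518 bone genes with a p, of which 69.7% were positive. That median is the value of Sp7, whose mean was 2 steps and whose value 39 bone genes shared. At p under 0.05 there were 2 members higher, Runx2 and Bglap2, and 1 lower, Alpl, against 28.8% of all bone genes higher, 4.20% lower and 33.0% in either direction. With FDR under 0.1 the same 3 members passed, against 32.2% of the bone genes. Adjusted over all bone genes with a p, 0 members and 0.0285% of genes passed 0.05. Restricted to the 5 members with a mean of at least 10, the median was 0.34, beside 0.19 over all such bone genes.

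**Figure D4:**
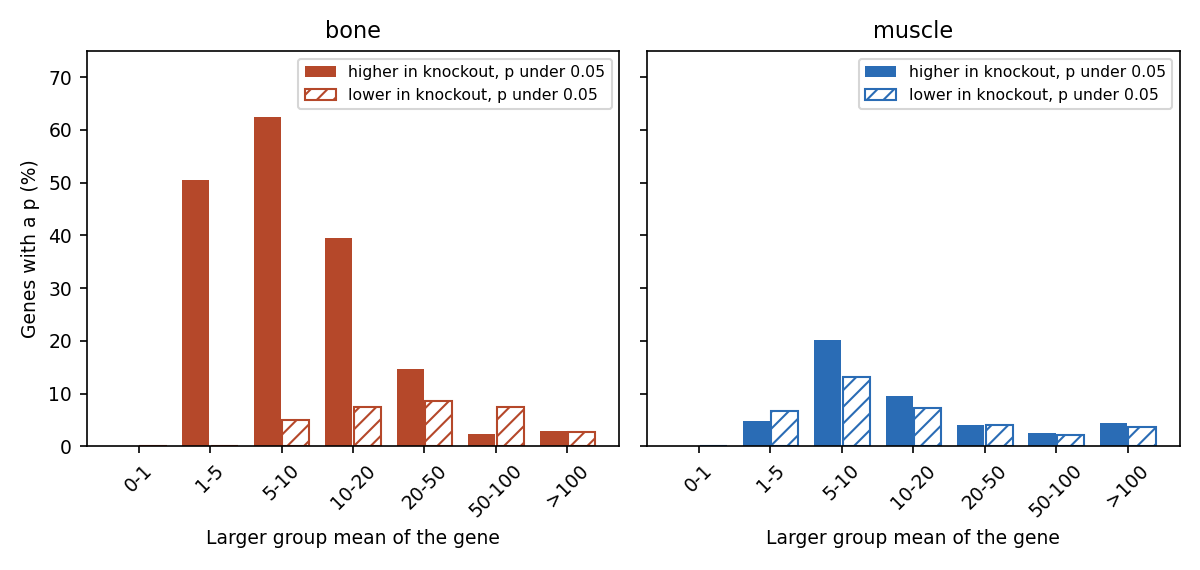
The share of genes with a p (vertical, percent) that were higher (filled) or lower (hatched) in the knockout with p under 0.05, by the larger group mean of the gene (horizontal, unit not named), in bone and in muscle. In bone 62.5% of genes at means above 5 to 10 are higher, and 2.85% at means above 100.

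In muscle cells none of the 10 genes was called either, and levels were low. Of the members, 7 had a p and none kept an FDR, and 0.127% of the 7107 muscle genes with an FDR were called. No member had p under 0.05, against 11.7% of the muscle genes with a p. An FDR under 0.1 was reached by 0.183% of muscle genes, and an FDR under 0.05 adjusted over all with a p by 0.0456%, in both cases by no member. The member of smallest p was Runx2, with a log2 fold change of 6.14 at a mean of 3.60 in the authors' deposited table (p = 0.0643), a mean of 30 steps of 0.120. The most abundant was Ibsp, at 20.7 in the authors' deposited table, with a log2 fold change of -3.61, lower in knockout cells (p = 0.0848). Its implied interval from -7.71 to 0.50 included 0.

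The other muscle values were small in level. Phex stood second at a mean of 9.56 and had a log2 value of 1.85 by the authors' deposited table (p = 0.396). Alpl had 1.30 at a mean of 3.39 in the authors' deposited table (p = 0.516), and Spp1 had 2.87 at 2.33 (p = 0.195). Sp7 and Bglap each had a mean of 1 step of 0.120 and a log2 value of 1.76 in the authors' deposited table, values that 55 genes shared. Bglap2, Dmp1 and Sost were listed at 0. The median of the 7 log2 fold changes was 1.76, beside 0.12 over all 13158 muscle genes with a p, and 6 of the 7 were positive, against 53.5% of all. Among the positive ones, Runx2, Sp7 and Bglap had means at whole multiples of the same step, 0.120. Of the muscle genes at whole multiples of that step alone, 98.7% were positive, so these signs are not separate observations. The median over the members equals the value of a gene at a single step.

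Across the tissues, Alpl was -3.95 in bone and 1.30 in muscle, and Ibsp 0.34 in bone and -3.61 in muscle, as log2 fold changes in the authors' deposited tables. The tables were made separately, and the difference between tissues was not tested. Runx2 was positive in both tables, at means of 7.27 and 3.60. In the knockout groups and their controls alike, fewer cells of a type and less RNA per cell cannot be told apart in such bulk samples.

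Other genes of the pathway were read from 5 lists of 8 genes. In bone no gene of these lists was called. The values below stand beside a median log2 fold change of 2.51 over all bone genes with a p, of which 69.7% were positive. Both depend on the level of the genes. The median was -0.50 at means above 50 to 100, with 38.3% positive, and 0.03 at means above 100, with 51.6% positive. Of 8 further transcription factor genes, 4 had a p, all positive, with a median log2 fold change of 2.19. Dlx5, a homeobox gene upstream of Runx2 and Sp7, had 7.21 at a mean of 31 steps in the authors' deposited table (p = 0.0298, FDR = 0.0970). Atf4, needed for late osteoblast function, had 1.36 (p = 0.212) and Cbfb, the partner subunit of RUNX2, 1.86 (p = 0.400) in the authors' deposited table. Of the mineral enzymes and transporters, 7 had a p, with a median of 0.32. Their smallest p values belonged to Enpp1, which makes pyrophosphate, at 2.38 (p = 0.319), and Car2, carbonic anhydrase, at 0.66 (p = 0.320) in the authors' deposited table. Slc8a1, a sodium and calcium exchanger, had 1.99 (p = 0.365) and Smpd3, a sphingomyelinase needed for mineralization, -0.41 at a mean of 245 steps (p = 0.868) in the authors' deposited table.

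The bone matrix list had 5 of 7 below 0 in bone and a median of -0.43, and no member passed. Of its 8 genes, 6 had a mean of at least 10, and over all bone genes with such a mean the median was 0.19. Ifitm5, an osteoblast membrane protein, had 8.0 at a mean of 54 steps in the authors' deposited table (p = 0.0174, FDR = 0.0822). Sparc, osteonectin, had -1.22 at a mean of 4172 (p = 0.0879), Col1a1, a type I collagen chain, -1.07 (p = 0.399), and Omd -1.81 (p = 0.432) in the authors' deposited table. Of the osteocyte list, Mepe, Fgf23, Dkk1 and Irx5 were listed at 0, and the 4 with a p had a median of -1.20. Pdpn, an early osteocyte membrane protein, had 5.44 at a mean of 9 steps in the authors' deposited table (p = 0.0820), Capg had -1.62 (p = 0.414), Ptprz1 -2.12 at a mean of 2 steps (p = 0.426) and Fbln7 -0.77 (p = 0.724). All 8 receptors had a p, 7 of them positive, with a median of 2.84, beside 2.51 over all bone genes with a p. Lrp6, a Wnt co-receptor, had 9.33 at a mean of 14.4 in the authors' deposited table (p = 0.00407, FDR = 0.0784). Lrp5, its relative, had 5.85 at a mean of 12 steps in the authors' deposited table (p = 0.0654). Bmpr1a, a receptor for bone morphogenetic proteins, had 4.13 at a mean of 74 steps (p = 0.0824) and Vdr, the vitamin D receptor, 4.16 at a mean of 0.426 (p = 0.139) in the authors' deposited table.

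In muscle 1 of the 25 genes of the 5 lists with an FDR was called, against 0.127% of all muscle genes with an FDR. It was Col1a2, at 1.27 on the log2 scale of the authors' deposited table (FDR = 0.00261). Col1a1 had 0.86 (p = 0.000976, FDR = 0.204) and Sparc 0.69 (p = 0.0110, FDR = 0.439) in the authors' deposited table, and neither was called. Omd had -2.08 in the authors' deposited table (p = 0.0889). The matrix list had 6 of 8 positive and a median of 0.57, beside 53.5% and 0.12 over all muscle genes with a p. All 7 mineral enzyme and transporter genes with a p were positive, with a median of 0.39 and no p under 0.05. The medians were -0.71 over 6 transcription factor genes, 0.20 over 5 osteocyte genes and 0.01 over 7 receptor genes. The smallest p among the transcription factors was that of Cbfb, at -1.15 in the authors' deposited table (p = 0.0651).

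**Figure D5:**
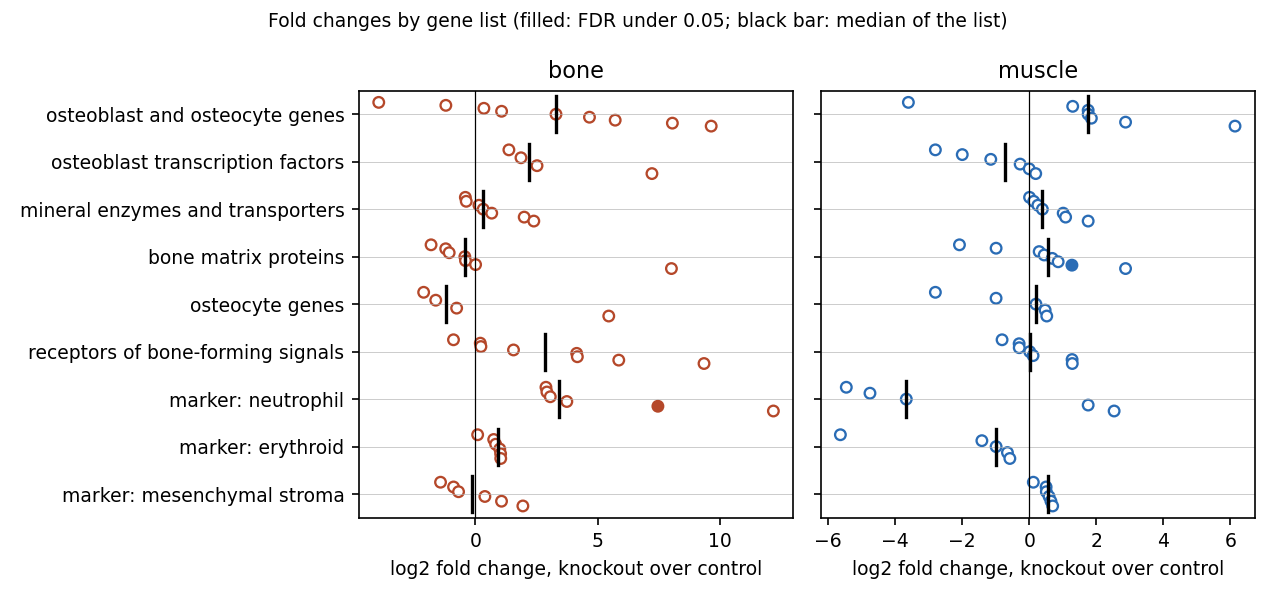
The log2 fold change of knockout over control (horizontal) of each gene with a p, by list (vertical), in bone and in muscle. Filled points have an FDR under 0.05 and black bars are list medians, 3.29 in bone and 1.76 in muscle for the members.

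The neutrophil, erythroid and leukocyte markers had positive fold changes in bone. Over all bone genes with a p, 69.7% were positive, with a median log2 fold change of 2.51. At means above 100, where all the neutrophil and erythroid genes lay, 51.6% were positive, with a median of 0.03. All 6 neutrophil genes had a positive fold change in bone, with a median log2 fold change of 3.39, a summed larger mean of 11492 and 1 call, Ltf at 7.45 in the authors' deposited table (FDR = 0.000229). All 6 had p under 0.05 in the authors' comparison, while 2.85% of the bone genes at means above 100 were higher with such a p. All 6 erythroid genes were positive too, with a median of 0.91, and their larger means made up 58.6% of the sum of the column. The members made up 0.0557%, the stromal markers 0.113% and the neutrophil genes 0.981%. All 4 leukocyte genes were positive, with a median of 2.03, and Ptprc, the gene of CD45, had a mean of 23.1 in the authors' deposited table. In the macrophage and osteoclast list 6 of 8 had a p, with a median of 5.24, Atp6v0d2 and Calcr were listed at 0, and Acp5 and Ctsk, the osteoclast enzymes, had -0.46 and -0.45 in the authors' deposited table. Stromal markers had 3 of 6 positive, a median of -0.15 and no call, with Pdgfra, the sorting marker, at a mean of 8.60 and Dcn at 673.8 in the authors' deposited table. The Pdgfra mean lay above those of 48.7% of the bone genes not at 0, whose median was 9.16. The 4 chondrocyte genes, led by Col2a1 at a mean of 2040 in the authors' deposited table, had a median of -0.82. Of 4 endothelial genes, 3 were listed at 0. The plasma and B cell list had a p in 2 of 3 genes, with a median of 8.79 and Ighm at 0. The myogenic list had a p in 2 of 4, with a median of 2.44. There Vcam1 had a mean of 55.9 and Acta1 of 0.505 in the authors' deposited table, with Pax7 and Myod1 at 0. The part of the marked cell types in the values of the members was not tested.

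In muscle the stromal markers were all positive, with a median log2 fold change of 0.55. Pdgfra was at a mean of 493.5 in the authors' deposited table. Over all muscle genes with a p, 53.5% were positive, with a median of 0.12. Of the erythroid genes 5 had a p, all negative, with a median of -0.99. The summed larger means of the leukocyte and endothelial markers were 7.16 and 17.7, with median log2 fold changes of 2.23 (3 of 4 positive) and 2.63 (2 of 4 positive), and the 5 neutrophil genes with a p had a median of -3.67, with Ltf at 0. The macrophage and osteoclast list had a p in 7 of 8 genes, with a median of 1.07 and Calcr at 0. Chondrocyte genes had a p in 2 of 4, with a median of 1.03 and Acan and Col10a1 at 0, and myogenic genes in 3 of 4, with a median of -0.52 and Pax7 at 0. Of the plasma and B cell genes, Cd79a had -0.02 in the authors' deposited table and the others were at 0. The part of these cells in the muscle values was not tested either. The targeted gene was not called. Esr1 had a log2 fold change of -2.69 in bone (p = 0.245) and 1.02 in muscle (p = 0.404) in the authors' deposited tables, and its bone mean of 75.9 was 606 times 1 step. That is a mean that 1 library could have given alone. A loss of Esr1 RNA was thus not shown in either tissue. A read at the transcript's end does not check a deletion further upstream.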

How the data were processed

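RNA of 12 sorted PDGFRα+ samples, 3 per group, was sequenced with a QuantSeq 3' kit, per the labels' protocols. GRCm38 and mm10 are the builds in the submitters' processing notes. Aligner, counting tool and test are not given. The deposited tables, 1 per tissue, hold the authors' log2 fold change, their signed fold change and their p-values (p, FDR and Bonferroni), per the file headers. The larger group mean is a deposited score without a named unit, per the file headers. A further 48 columns of values per library carry laboratory codes that match no label and were not used. Count-based tests in edgeR or DESeq2, leaving out replicates and likeness of pattern between genes need those columns and were not run. The authors' comparison replaced them. Depth per sample is therefore not given, and 25600 genes had an ID in GENCODE vM21, of which 564 lay at the positions given in the tables. Coordinates printed are those of GENCODE vM21 on GRCm38, by Ensembl ID.

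The threshold was an FDR below 0.05 in the authors' comparison. A Benjamini-Hochberg adjustment over genes holding an FDR differed from the deposited one by at most 0.000142 in bone and 0.000995 in muscle. Intervals at 95% came from the log2 fold change and a two-sided normal p. The steps were the 6 lowest distinct means of each table. These computations were tested on simulated data. The text names all members, up to 4 genes of smallest p of each pathway list, any called gene, and Bglap3, and 1 gene of the pathway lists is not reported here. The members, the 5 lists and the 9 marker lists were chosen with earlier results of these data known. Alternatives were other thresholds and adjustments, and medians over fewer members. Promoters came from RefSeq. Sequence words of 50 bases came from the last 300 bases of each coding transcript and were searched over the full length of all transcripts. Software was Python 3.11.15, pandas 2.3.3, numpy 2.4.6, scipy 1.17.1, Biopython 1.88 and matplotlib 3.10.9.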

Additional observations from a re-analysis of the deposited data

How the results depend on the processing

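At the authors' FDR under 0.05, 0 members were called in bone and 0 in muscle, and the count stayed 0 in both with Benjamini-Hochberg adjustment over all genes with a p and with the authors' Bonferroni p. In bone the count was 3 (Runx2, Bglap2 and Alpl) at FDR under 0.1 and 3 at an unadjusted p under 0.05. In muscle it was 0 under both. The 5 pathway lists had 0 calls in bone, against 3 of 25 genes with an FDR at FDR under 0.1, beside 32.2% of all bone genes, and 3 of 30 genes with a p at an unadjusted p under 0.05, beside 33.0% of all. In muscle 1 of their 25 genes with an FDR was called, Col1a2, beside 0.127% of all muscle genes with an FDR. At an unadjusted p under 0.05 there were 3 of 33 genes with a p, beside 11.7% of all. The median log2 fold change of the bone members, 3.29, was 0.34 over members with a mean of at least 10 and 0.71 over members with an FDR. Over all bone genes the same medians were 2.51, 0.19 and 1.46, so the members lay above all genes in the first 2 and below them in the last. In muscle the median of 1.76 turned to -3.61 at a mean of at least 10, where Ibsp alone was left, and no member had an FDR. Over all muscle genes these medians were 0.12 and 0.04. An alternative chosen after seeing the data left out members whose mean is a whole multiple of 1 read step. It gave medians of 0.34 in bone and 1.57 in muscle, beside 2.06 and 0.12 over all genes left by the same rule. No paired analysis was possible because no column of values could be assigned to a sample. Leaving out replicates, the replicate block, edgeR and DESeq2 were not run for the same reason. Depth was not known.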
